A study of Mus musculus with 24 samples.

Results

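De novo lipogenesis, the making of fatty acids from acetyl-CoA, was followed in mouse liver through 10 genes, chosen by name: Srebf1, Mlxipl, Thrsp, Acly, Acss2, Acaca, Acacb, Fasn, Me1 and Pnpla3. All 10 were on the array and all 10 were among the 21331 genes tested. They were read by 27 probes, of which 26 passed the filter on dim probes. The brightest probe of each gene carries its level and its test below, and this probe was well above background on all 24 arrays for every member.

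Livers came from male C57Bl/6J mice with free access to a standard diet, in 4 groups of 6. By the series title, hepatocytes expressed PPARα in 1 genotype, labelled LWT, and lacked it in the other, labelled LKO. The Cre driver and the deleted part of Ppara are not given in the sources used here. Within each genotype, mice received by gavage at Zeitgeber time 10 h either 3 mg/kg of CL316243, which activates beta3 adrenergic receptors, or only the 0.5% carboxymethyl cellulose in which it was given. All livers were taken at Zeitgeber time 16 h, so each animal was seen once, in the dark phase. The comparisons ask how the agonist changed lipogenic transcripts and whether hepatocyte PPARα altered that change. The replicate numbers of the labels were taken as separate mice, and p-values measure only the spread between these samples.

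Hepatocytes build fatty acids from citrate that leaves mitochondria. ATP citrate lyase and acetyl-CoA synthetase supply cytosolic acetyl-CoA, acetyl-CoA carboxylase turns it into malonyl-CoA, and fatty acid synthase assembles palmitate with NADPH that malic enzyme helps to supply. The pathway is controlled largely through transcription, by SREBP-1c in response to insulin and by ChREBP in response to glucose metabolites, and both factors act on many of the enzyme genes listed here.

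Promoter windows of 4 members are shown because these genes have a single start site in the RefSeq promoter table (GRCm38.p6) and the groups differed for them: Thrsp and Fasn were lower with CL316243 in both genotypes, Pnpla3 was called lower in LWT, and Acacb was called higher in LWT. Each run is the 250 bases before the start site, read 5′ to 3′ on the strand of the gene. Capitals mark E boxes (CANNTG), CCAAT boxes and GC boxes (GGGCGG), searched on both strands. The windows are chr7:97417551-97417800 (minus strand) for Thrsp, chr11:120824548-120824797 (minus) for Fasn, chr15:84167566-84167815 (plus) for Pnpla3 and chr5:114165268-114165517 (plus) for Acacb.
Thrsp: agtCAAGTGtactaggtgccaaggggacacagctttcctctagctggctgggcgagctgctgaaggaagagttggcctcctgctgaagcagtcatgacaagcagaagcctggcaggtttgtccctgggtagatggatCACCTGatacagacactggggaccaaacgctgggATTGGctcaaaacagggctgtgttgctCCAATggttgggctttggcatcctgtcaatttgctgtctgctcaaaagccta
Fasn: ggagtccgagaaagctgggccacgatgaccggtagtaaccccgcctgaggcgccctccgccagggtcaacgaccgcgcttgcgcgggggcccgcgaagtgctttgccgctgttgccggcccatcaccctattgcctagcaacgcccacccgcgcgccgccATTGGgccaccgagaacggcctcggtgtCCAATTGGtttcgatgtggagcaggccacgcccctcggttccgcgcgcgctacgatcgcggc
Pnpla3: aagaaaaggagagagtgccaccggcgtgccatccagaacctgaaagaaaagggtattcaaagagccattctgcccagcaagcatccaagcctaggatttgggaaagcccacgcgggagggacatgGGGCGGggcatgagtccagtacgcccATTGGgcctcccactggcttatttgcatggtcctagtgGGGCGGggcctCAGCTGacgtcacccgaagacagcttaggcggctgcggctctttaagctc
Acacb: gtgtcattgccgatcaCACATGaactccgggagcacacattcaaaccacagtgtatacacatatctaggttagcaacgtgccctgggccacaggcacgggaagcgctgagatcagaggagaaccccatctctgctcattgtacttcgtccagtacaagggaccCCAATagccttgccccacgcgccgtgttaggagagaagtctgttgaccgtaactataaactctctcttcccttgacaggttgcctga
Each of these 4 windows held a CCAAT box on either strand and at least 1 E box, and the E box of Fasn overlapped 2 of its 3 CCAAT boxes. Only the Pnpla3 window among the 4 held GC boxes, and it held 2. Over all 10 members the table gave 14 windows, since Srebf1 had 3 start sites and Mlxipl and Me1 had 2 each. An E box was found in 10 of the 14, against 66.2% of the 32851 windows of the table, a CCAAT box in 9 of 14 against 33.8%, and a GC box in 7 of 14 against 32.7%. The E box form CACGTG was found in 1 window, of Mlxipl, against 6.02% of windows, and the sterol element core CACCCCA in 0 of 14 against 6.68%. A match is a description of letters, and the arrays do not measure binding.

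Levels are log2 intensities minus the array's own 75th percentile, so a level of 0 is the brightness of the 75th percentile spot, and levels of different probes are not comparable. The 75th percentile ran from 397 to 578 intensity units over the 24 arrays, and was lowest on the array of LKO vehicle replicate 6. Hepatocyte markers were well above background on every array (8 of 8 genes tested). Of 4 brown adipocyte markers, Ucp1 and Zic1 were well above background on 1 and 0 of 24 arrays, Cidea on 19 and Ppargc1a on 24. Cidea was called higher with CL316243 (2.41 in LWT, 1.08 in LKO) and Ppargc1a lower in LWT (-1.47). Both genes are also made by hepatocytes. Of 6 white adipocyte markers, Adipoq did not pass the filter, Lep, Plin1 and Pck1 were well above background on all 24 arrays, Retn on 22 and Cfd on 17. Cfd was called lower in LKO under vehicle (-3.61) and under CL316243 (-2.34). The other tested white adipocyte markers were not called between genotypes. Their differences under vehicle were -0.04 for Lep, -0.07 for Plin1, 0.09 for Retn and 0.10 for Pck1. With CL316243, 0 of the 5 tested were called in either genotype. Plin1 and Pck1 are also made by hepatocytes. Ppara itself was lower in every LKO liver than in any LWT liver of the same treatment: on its brighter probe the log2 difference was -0.68 in vehicle livers and -1.91 in treated ones (exact permutation test over all splits, two-sided, p = 0.00216 in each, the smallest these groups can give). In the limma fit over genes the difference under vehicle was not called for that probe (adjusted p = 0.158) and that under CL316243 was (adjusted p = 3.60e-07). In the fit over probes, the second Ppara probe was called lower in LKO under both vehicle (-0.92, adjusted p = 0.0188) and CL316243 (-2.09, adjusted p = 5.82e-08).

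CL316243 changed the transcripts of the pathway in both directions. In LWT livers 7 of 10 members passed the test (limma, adjusted p under 0.05), 5 lower (Srebf1, Mlxipl, Thrsp, Fasn and Pnpla3) and 2 higher (Acacb and Me1). Of all genes, 38.3% were called in LWT, 19.4% lower and 18.9% higher, so the agonist reached a large share of the transcriptome. The median change of the members was -0.56, against 0.01 over all genes. In LKO livers 5 of 10 passed, 4 lower (Srebf1, Mlxipl, Thrsp and Fasn) and 1 higher (Me1), where 40.3% of all genes were called, 19.4% lower and 20.9% higher. There the median of the members was -0.19, against 0.03 over all genes. The groups did not overlap for 3 members in LWT and 2 in LKO, against 20.4% and 20.8% of all genes. Me1, the exception in sign among the genes called in both genotypes, encodes an enzyme that supplies NADPH. Some markers of neutrophils also moved with the agonist: 3 of 6 were called higher and 1 lower in LWT, and 4 of 6 higher in LKO. Their median log2 summed level was 1.81 under vehicle and 3.12 under CL316243 in LWT, and 1.62 and 3.03 in LKO. S100a8, S100a9 and Retnlg were called higher in both genotypes (1.48, 1.44 and 2.06 in LWT, 2.30, 2.25 and 3.48 in LKO). Ly6g was called lower in LWT (-0.38) and was at -0.28 in LKO without a call. Elane was called higher in LKO only (0.34), and Mpo in neither genotype. The cholangiocyte markers had a median log2 summed level of -0.16 under vehicle and 1.04 under CL316243 in LWT, and of -0.37 and 1.73 in LKO, where the groups did not overlap. Of these 4 genes 1, Sox9, was called higher in each genotype (1.47 and 2.18). Krt19, Krt7 and Epcam were not called, at -0.53, -0.02 and -0.07 in LWT and at 0.25, -0.23 and 0.76 in LKO. Of 5 endothelial markers, 2 were called higher and 1 lower in LWT, and 1 higher and 1 lower in LKO. Lyve1 was higher in both (1.18 and 2.39) and Kdr lower in both (-0.40 and -0.56), and the median log2 summed level of the list was 4.12 and 4.16 in LWT and 4.14 and 4.07 in LKO. Of 5 stellate cell and fibroblast markers, 1 was called higher and 1 lower in LWT and 1 higher in LKO. The Kupffer cell markers had medians of 5.85 and 5.72 in LWT and 5.62 and 5.73 in LKO. Of the hepatocyte markers, 1 of 8 was called higher in LWT, and 1 higher and 1 lower in LKO. Their part in the results was not tested, and in whole liver, fewer cells of a type and less RNA per cell cannot be told apart.

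**Figure D1:**
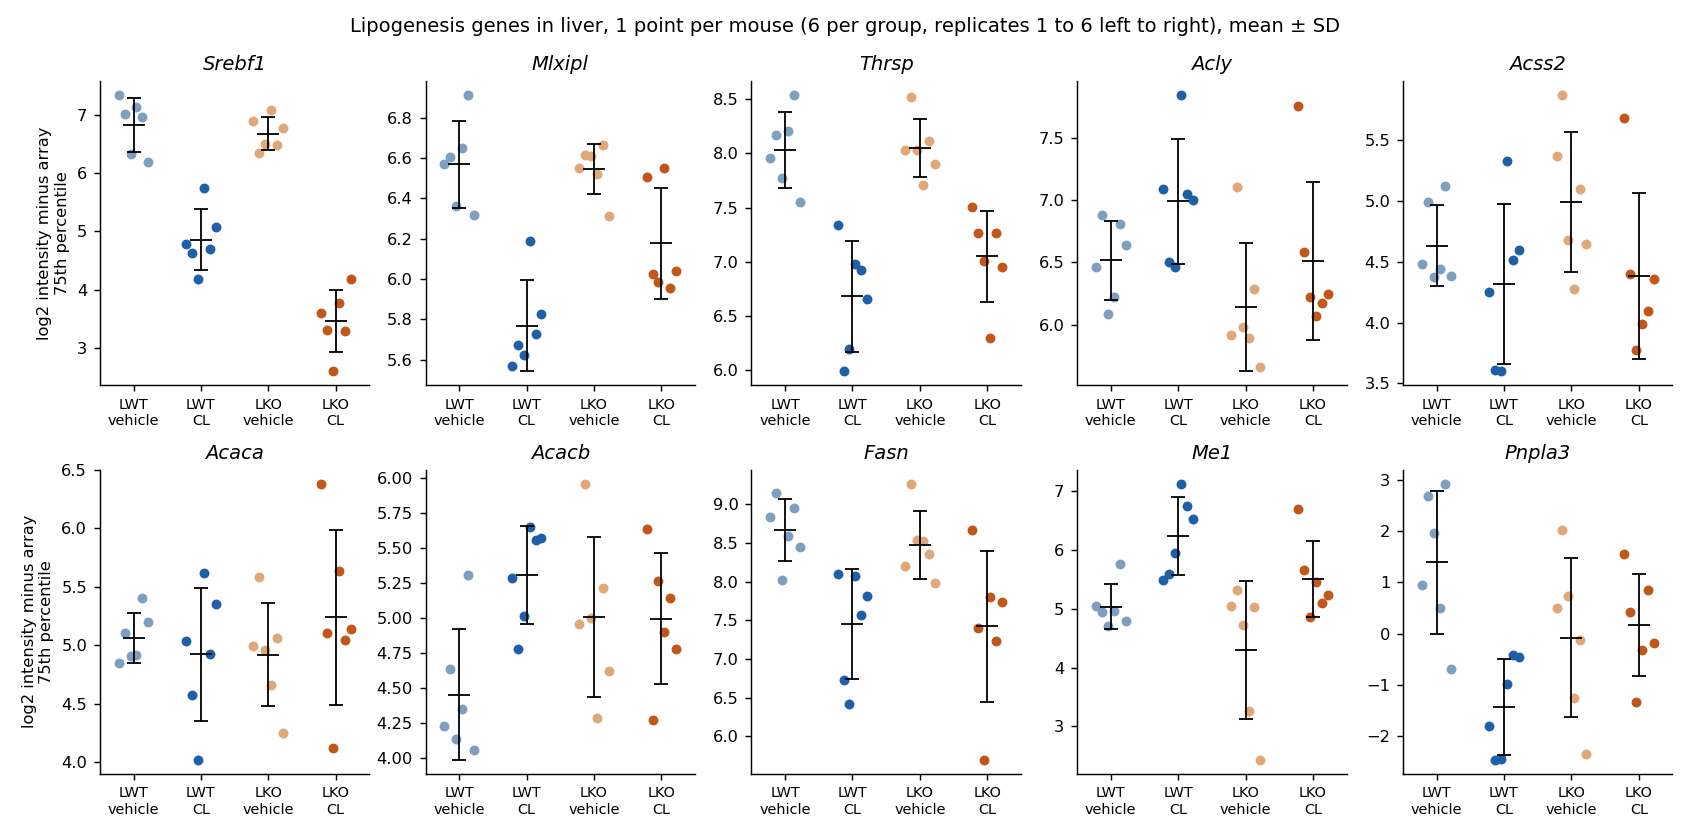
Level of each member's brightest probe in every liver (log2 intensity minus the array's 75th percentile, y axis) by group (x axis; CL, CL316243). Points are mice, replicates 1 to 6 from left to right, and bars are the mean ± SD of 6. Srebf1 shows no overlap between treatments, from 6.18 to 7.34 under vehicle and 4.19 to 5.74 under CL316243 in LWT, while the Acaca groups overlap throughout.

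Of the 10 members, Srebf1 had the largest fall relative to its error in each genotype. It encodes the transcription factor SREBP-1. In LWT livers its level ran from 6.18 to 7.34 under vehicle (median 6.98) and from 4.19 to 5.74 under CL316243 (median 4.75). In LKO livers it ran from 6.34 to 7.08 under vehicle (median 6.64) and from 2.61 to 4.18 under CL316243 (median 3.46). The treated livers lay below all vehicle livers in each genotype, and every treated LKO liver lay below every treated LWT liver. Srebf1 was 3.90-fold lower with CL316243 in LWT (log2 change -1.96, SE 0.26, limma adjusted p = 3.34e-06) and 9.28-fold lower in LKO (-3.21, SE 0.26, adjusted p = 1.57e-08). Within the 3 slides the change was -0.84, -2.76 and -2.29 in LWT and -3.68, -2.71 and -3.24 in LKO. The single Srebf1 probe reads the 3′ part of the transcript, from base 3616, at chr11:60013214-60013273 of build mm9, and so does not separate the start sites of the gene.

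Mlxipl, which encodes the glucose-responsive factor ChREBP, fell less. Its level lay between 6.32 and 6.91 (median 6.59) under vehicle and between 5.57 and 6.19 (median 5.70) under CL316243 in LWT. The LKO livers lay between 6.31 and 6.66 (median 6.58) under vehicle and between 5.95 and 6.55 (median 6.03) under CL316243. The treatment groups were apart in LWT and overlapped in LKO. The change was -0.80 in LWT (SE 0.12, limma adjusted p = 2.67e-05) and -0.37 in LKO (SE 0.12, adjusted p = 0.0210). The LKO call was lost without CL316243 replicate 3 (adjusted p = 0.0503) or replicate 5 (adjusted p = 0.0535).

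Thrsp, whose product Spot 14 is a small nuclear and cytosolic protein that promotes lipogenesis, was lower in every treated liver than in any vehicle liver of its genotype. In LWT its level was 7.56 to 8.54 (median 8.06) under vehicle and 5.99 to 7.34 (median 6.79) under CL316243. In LKO it was 7.71 to 8.52 (median 8.03) and 6.30 to 7.51 (median 7.14). This was 2.55-fold lower in LWT (log2 change -1.35, SE 0.22, limma adjusted p = 4.82e-05) and 2.0-fold lower in LKO (-1.0, SE 0.22, adjusted p = 0.000990), and neither call was lost when any 1 mouse was left out.

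The enzymes that supply cytosolic acetyl-CoA did not pass the test on their brightest probes. Acly, ATP citrate lyase, ran from 6.09 to 6.88 (median 6.55) under vehicle and from 6.46 to 7.84 (median 7.02) under CL316243 in LWT. In LKO it ran from 5.66 to 7.11 (median 5.95) and from 6.07 to 7.75 (median 6.23). The groups overlapped, and the change was 0.47 in LWT (95% interval -0.10 to 1.05) and 0.37 in LKO (-0.21 to 0.95). Acss2, which activates acetate, ran from 4.38 to 5.13 (median 4.46) under vehicle and from 3.60 to 5.33 (median 4.38) under CL316243 in LWT, and from 4.28 to 5.87 (median 4.89) and from 3.77 to 5.69 (median 4.23) in LKO. Its change was -0.32 in LWT (95% interval -0.98 to 0.35) and -0.61 in LKO (-1.27 to 0.05). Without LKO CL316243 replicate 1, the highest liver of its group, the LKO change of Acss2 was -0.87 and was called (limma adjusted p = 0.0197). With the mean of its 4 kept probes in place of the brightest, Acss2 was called lower in LWT (-1.23, adjusted p = 0.000752) and in LKO (-1.0, adjusted p = 0.00408).

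Of the acetyl-CoA carboxylases, Acacb was called in LWT and Acaca in neither genotype, and they were not tested against each other. Acaca, the cytosolic form whose malonyl-CoA feeds fatty acid synthesis, ran from 4.85 to 5.40 (median 5.01) under vehicle and from 4.02 to 5.62 (median 4.98) under CL316243 in LWT, and from 4.25 to 5.58 (median 4.97) and from 4.12 to 6.38 (median 5.12) in LKO. The treated groups were the more spread, and their range held every vehicle liver of the same genotype. The change was -0.14 in LWT (95% interval -0.75 to 0.47) and 0.32 in LKO (-0.29 to 0.93). Acacb, the form at the outer mitochondrial membrane whose malonyl-CoA restrains fatty acid entry into mitochondria, ran from 4.05 to 5.31 (median 4.29) under vehicle and from 4.77 to 5.64 (median 5.42) under CL316243 in LWT. In LKO it ran from 4.28 to 5.96 (median 4.98) and from 4.27 to 5.63 (median 5.02). In LWT only vehicle replicate 5 reached into the treated range, and Acacb rose by 0.85 (SE 0.26, limma adjusted p = 0.0120). In LKO the groups overlapped and the change was -0.01 (95% interval -0.55 to 0.53). The difference between the genotypes' changes was -0.87 (95% interval -1.63 to -0.10) and was not called (adjusted p = 0.197).

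Fasn, fatty acid synthase, ran from 8.02 to 9.15 (median 8.71) under vehicle and from 6.42 to 8.10 (median 7.70) under CL316243 in LWT. In LKO it ran from 7.98 to 9.27 (median 8.44) and from 5.70 to 8.66 (median 7.57). The treated livers spread more widely than the vehicle livers, and the groups overlapped in each genotype. Fasn fell 2.32-fold in LWT (log2 change -1.21, SE 0.37, limma adjusted p = 0.0128) and 2.08-fold in LKO (-1.06, SE 0.37, adjusted p = 0.0273). Within the 3 slides the LWT change was -0.29, -2.42 and -0.93, and the LKO change -1.71, -0.53 and -0.93. The LKO call was lost without CL316243 replicate 3, the lowest liver (-0.71, adjusted p = 0.0805), or without vehicle replicate 2, the highest (-0.90, adjusted p = 0.0707).

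Me1, cytosolic malic enzyme, moved opposite to Fasn. Its level was 4.71 to 5.77 (median 4.96) under vehicle and 5.49 to 7.13 (median 6.23) under CL316243 in LWT. In LKO it was 2.43 to 5.31 (median 4.88) and 4.86 to 6.70 (median 5.34). Vehicle replicate 5 lay within the treated range in LWT, and the LKO groups overlapped. Vehicle replicates 6 and 4 of LKO, at 2.43 and 3.27, lay below the other 4 of their group, which were at 4.73 to 5.31. Me1 rose 2.29-fold in LWT (log2 change 1.20, SE 0.42, limma adjusted p = 0.0290) and 2.29-fold in LKO (1.20, SE 0.42, adjusted p = 0.0280). Within each of the 3 slides it was higher with CL316243, by 2.08, 0.77 and 0.75 in LWT and by 1.68, 0.79 and 1.12 in LKO. Of the members' calls with CL316243, those of Me1 were lost most often when 1 mouse was left out. The LWT call was lost in 5 of the 24 fits that left out 1 mouse (vehicle replicates 3 and 6, CL316243 replicates 4, 5 and 6, with adjusted p up to 0.0681). The LKO call was lost in 3 (vehicle replicates 4 and 6 and CL316243 replicate 1, adjusted p up to 0.0801), with a change of 0.82 when vehicle replicate 6 was left out.

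Pnpla3 encodes adiponutrin, a lipid droplet protein whose gene responds to SREBP-1c. Its level ran from -0.69 to 2.93 (median 1.46) under vehicle and from -2.47 to -0.42 (median -1.40) under CL316243 in LWT. In LKO it ran from -2.35 to 2.03 (median 0.19) and from -1.33 to 1.55 (median 0.13). In LWT vehicle replicate 6 alone reached into the treated range, whereas in LKO the groups overlapped throughout. Pnpla3 fell 7.10-fold in LWT (log2 change -2.83, SE 0.69, limma adjusted p = 0.00231), and its change in LKO was 0.25 (95% interval -1.17 to 1.67). It had the widest spread of the 10 members, with an SD of 1.39 among LWT vehicle livers and 1.55 among LKO vehicle livers.

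**Figure D2:**
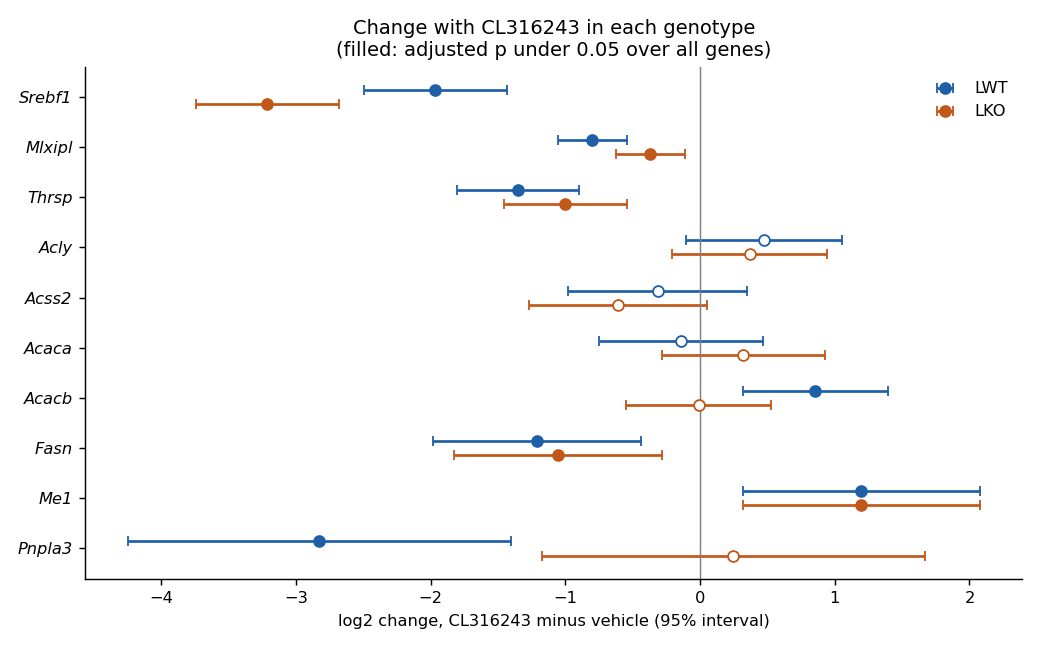
Log2 change with CL316243 (x axis, points) and its 95% interval (bars) for each member in LWT and LKO, from the limma fit over all genes; filled points passed an adjusted p of 0.05. Srebf1 lies furthest to the left in LKO (-3.21) and Pnpla3 in LWT (-2.83), and Me1 lies at 1.20 in both genotypes.

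The genotypes were then compared directly. Under vehicle 0 of 10 members differed between LKO and LWT, where 1.18% of all genes were called (0.398% higher and 0.778% lower), and the limma fit gave an unadjusted p under 0.05 for 2 members, Acacb and Pnpla3. Over all genes 8.08% had an unadjusted p under 0.05. The genotype groups overlapped for all 10 members, and did not overlap for 1.80% of all genes. The difference was 0.55 for Acacb (95% interval 0.02 to 1.09), -0.73 for Me1 (-1.61 to 0.14) and -1.47 for Pnpla3 (-2.89 to -0.05), and between -0.37 and 0.36 for the other 7. Under CL316243 2 of 10 were called, against 15.9% of all genes (7.74% higher and 8.17% lower), and the groups of 1 member did not overlap, against 6.57% of all genes. Srebf1 was 2.63-fold lower in LKO (log2 difference -1.39, SE 0.26, limma adjusted p = 0.000423), without overlap, and Mlxipl was 1.33-fold higher (0.41, SE 0.12, adjusted p = 0.0258), with overlap. Pnpla3 was 1.60 higher in LKO on the log2 scale, with a 95% interval of 0.18 to 3.02, and was not called (adjusted p = 0.125). Without LKO vehicle replicate 6 and LKO CL316243 replicate 3 together, a setting chosen after seeing the data, it was called (1.90, adjusted p = 0.0421). The Srebf1 difference was -2.46, -0.51 and -1.21 within the 3 slides. The Mlxipl call was lost without any of LWT CL316243 replicates 1, 2 and 3 or LKO CL316243 replicates 1 and 4 (adjusted p 0.0527 to 0.0683), and on slide 1 alone its difference was -0.00. At the Mlxipl probes at bases 1365 and 3591 the difference was 0.37 and 0.05, without a call (limma fit over probes, adjusted p = 0.121 and 0.745). Acly had a difference of -0.48 without a call, and was called without LKO CL316243 replicate 1, the highest liver of its group (-0.73, limma adjusted p = 0.0432).

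The difference between the genotypes' responses was called for 1 of 10 members, Srebf1, where 5.41% of all genes were called (2.17% higher and 3.24% lower). The fall of Srebf1 was greater in LKO, with a difference of -1.25 on the log2 scale (95% interval -2.0 to -0.50, limma adjusted p = 0.0445). This call lies near the threshold: 18 of the 24 fits without 1 mouse lost it, and so did 6 of 11 other settings of the processing. Over all 24 fits the difference was -1.39 to -1.07 (limma adjusted p 0.0204 to 0.0812). Within the 3 slides the difference was -2.84, 0.05 and -0.95. Pnpla3 had the largest difference in size, 3.07 (95% interval 1.06 to 5.08), and was not called (adjusted p = 0.0682). On its slides the difference was 1.73, 3.71 and 3.78, and it was called without LWT vehicle replicate 6 (3.49, adjusted p = 0.0297), without LKO vehicle replicate 2 (3.50, adjusted p = 0.0309) and without LKO CL316243 replicate 3 (3.37, adjusted p = 0.0374). At the second Pnpla3 probe the difference was 1.62 (95% interval -0.13 to 3.37) and was not called (limma fit over probes, adjusted p = 0.309). For Mlxipl the difference was 0.43 (95% interval 0.07 to 0.80, adjusted p = 0.173). Thrsp (0.35, 95% interval -0.29 to 1.0), Fasn (0.16, -0.93 to 1.25) and Me1 (-0.00, -1.24 to 1.24) had intervals on both sides of 0, as had Acly, Acss2 and Acaca.

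Members with several probes were then read at each probe. A base number counts along the probe's own annotated transcript. The probes of Mlxipl, Acly, Acss2, Acaca and Acacb lie on different transcripts, so base numbers do not order them. In a fit over all 32037 kept probes, 37.6% were called with CL316243 in LWT, 41.0% in LKO and 5.96% for the difference between the genotypes' responses. Both Thrsp probes fell in both genotypes, with the probe at base 399 at -1.57 in LWT and -1.24 in LKO. All 6 kept Acaca probes lay between -0.31 and -0.09 in LWT and between 0.12 and 0.59 in LKO, and none was called. The 2 Acly probes were not called either, at 0.35 to 0.47 in LWT and 0.24 to 0.37 in LKO. The Me1 probe at base 1729 was 0.90 higher in LWT without a call (limma adjusted p = 0.0813) and rose by 1.05 in LKO (adjusted p = 0.0382).

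The probes of Acss2, Acacb, Mlxipl and Pnpla3 did not all give 1 answer. Of the 4 Acss2 probes, the probe at base 3484 of the transcript ENSMUST00000149788 (mm9 chr2:155350949-155351008) had a mean level of -0.08 (SD 0.94) under vehicle and -3.21 (SD 0.72) under CL316243 in LWT, and of -0.70 (SD 0.57) and -2.71 (SD 0.77) in LKO. It fell in both, with a change of -3.13 in LWT (limma adjusted p = 4.98e-06) and -2.01 in LKO (adjusted p = 0.000594), where the brightest probe, at base 2738 of NM_019811, was not called. The second probe of ENSMUST00000149788, at base 1853, fell by 1.17 in LWT (adjusted p = 0.00827) and was at -0.52 in LKO. The second probe of NM_019811, at base 1977, fell by 0.85 in LKO (adjusted p = 0.0276) and was at -0.29 in LWT. For Acacb the probe at base 278 rose by 0.92 in LWT (adjusted p = 4.96e-05) and was at 0.21 in LKO. At this probe the difference between the genotypes' responses was called (-0.71, adjusted p = 0.0476), which it was not at the brightest probe, and the third Acacb probe, at base 3778, was at 0.25 in LWT and 0.15 in LKO, with no call. The Mlxipl probe at base 1365 fell in both genotypes (-0.97 in LWT, -0.60 in LKO), whereas that at base 3591 was at 0.07 in LWT and rose by 0.21 in LKO (adjusted p = 0.0239). A run of 20 bases of the probe at base 1365 recurs in the promoter windows of 19 genes and in 9 probes of other genes, against at most 1 and 0 for the other 26 member probes. The Pnpla3 probe at base 1137 was above background on 19 of 24 arrays, and on 3 of 6 in LWT under CL316243. It fell by 2.30 in LWT (adjusted p = 0.00415) and was at -0.68 in LKO.

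**Figure D3:**
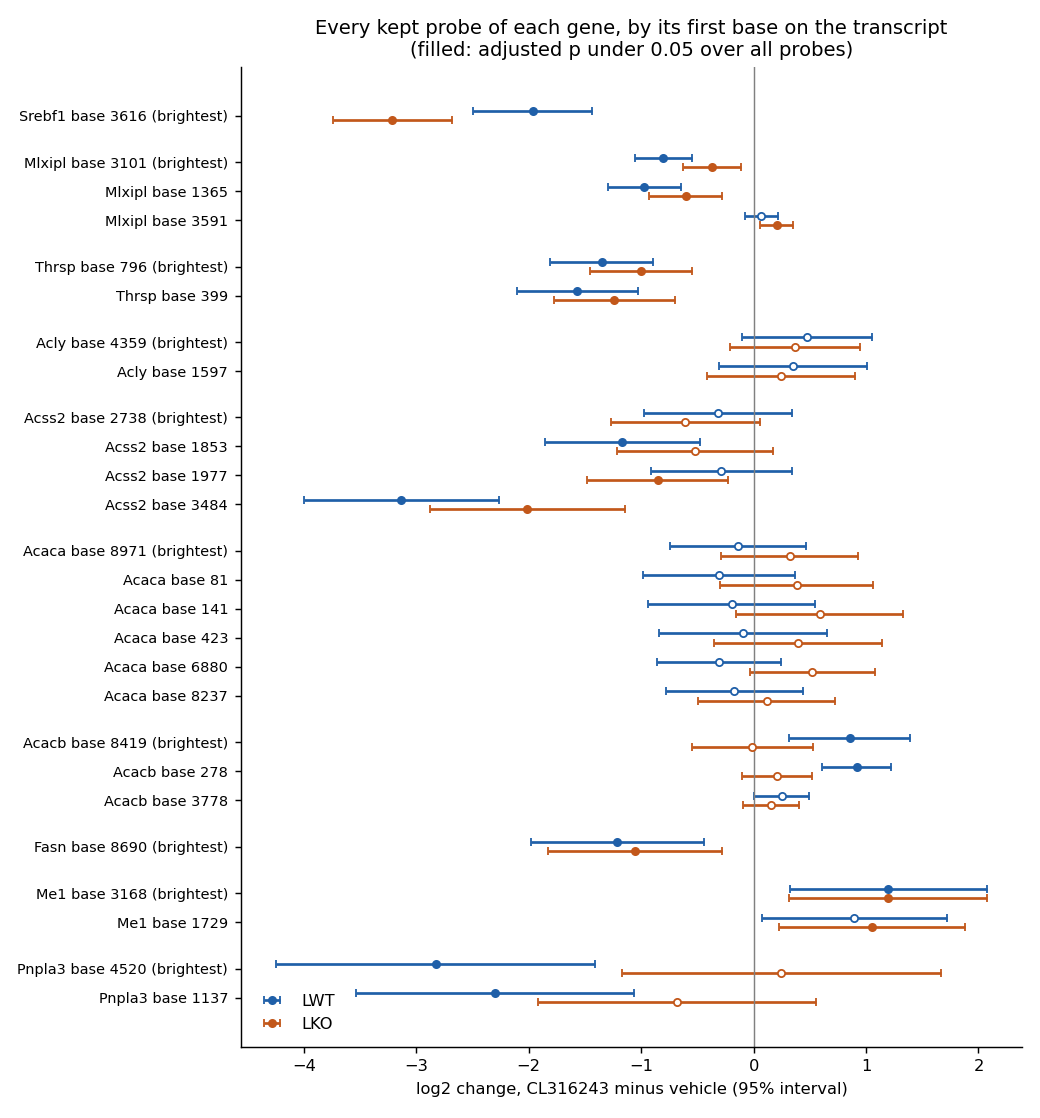
Log2 change with CL316243 (x axis) with its 95% interval for each of the 26 kept probes, labelled by gene and by the first base of the probe on its transcript; filled points passed an adjusted p of 0.05 over all probes. The Acss2 probe at base 3484 lies at -3.13 in LWT and the Mlxipl probe at base 3591 at 0.07, apart from the other probes of their genes.

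The members were then compared between mice of the same group. With the group means removed, the level of each of the 9 other members was correlated over the 24 mice with that of Fasn (9 pairs, permutation within groups, two-sided, Benjamini-Hochberg adjusted over the 9). The correlation was highest for Acaca (Pearson r = 0.88, permutation p = 2.0e-05, adjusted 0.000180; Spearman rho = 0.76, permutation p = 0.000190, adjusted 0.00171). Acss2 (r = 0.74, rho = 0.66), Acly (r = 0.72, rho = 0.70) and Srebf1 (r = 0.61, rho = 0.55) followed, with permutation p for r of 0.000790, 0.00119 and 0.00714 and for rho of 0.00164, 0.000740 and 0.0105. Pnpla3 (r = 0.59, rho = 0.58), Mlxipl (r = 0.58, rho = 0.58), Thrsp (r = 0.52, rho = 0.57), Me1 (r = 0.52, rho = 0.50) and Acacb (r = 0.43, rho = 0.52) were lower, with permutation p for r of 0.00111, 0.00902, 0.0258, 0.00962 and 0.0410 and for rho of 0.00390, 0.00570, 0.00972, 0.0215 and 0.0138. The adjusted p for r was at most 0.0410 over the 9 pairs and that for rho at most 0.0215. The correlation of Fasn with all other genes was not computed, so these values do not set the members apart from genes at large. Leaving out the 2 mice farthest from the median of Fasn, LKO CL316243 replicates 1 and 3, gave r between 0.42 (Me1) and 0.80 (Acaca).

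The relation was uneven across groups and slides. Within the groups of 6 mice r was -0.54 for Srebf1 in LKO vehicle livers, and 0.09 for Acacb and 0.14 for Thrsp in LKO CL316243 livers, and between 0.38 and 0.96 for the other pairs and groups. On slide 2 r lay between 0.43 (Srebf1) and 0.92 (Thrsp), and on slide 1 between 0.05 (Acacb) and 0.93 (Acaca), each over 8 mice. On slide 3 it was 0.58 for Acaca and between -0.19 (Me1) and 0.27 (Acly) for the others, also over 8 mice. The difference between slides was not tested. The points share the array and its scaling by the 75th percentile, and with the median in its place r was 0.50 to 0.90. Single livers stood at the ends of their groups for most members: LKO CL316243 replicate 1 was the highest of its group for 8 of 10, LKO vehicle replicate 2 for 8, and LWT CL316243 replicate 4 and LWT vehicle replicate 5 for 7 each. LKO vehicle replicate 6 and LKO CL316243 replicate 3 were the lowest of their groups for 6 each. Leaving out both of the last-named livers left 3 of 10 members called in LKO, with Fasn at -0.81 (limma adjusted p = 0.0576) and Me1 at 0.95 (adjusted p = 0.0565).

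**Figure D4:**
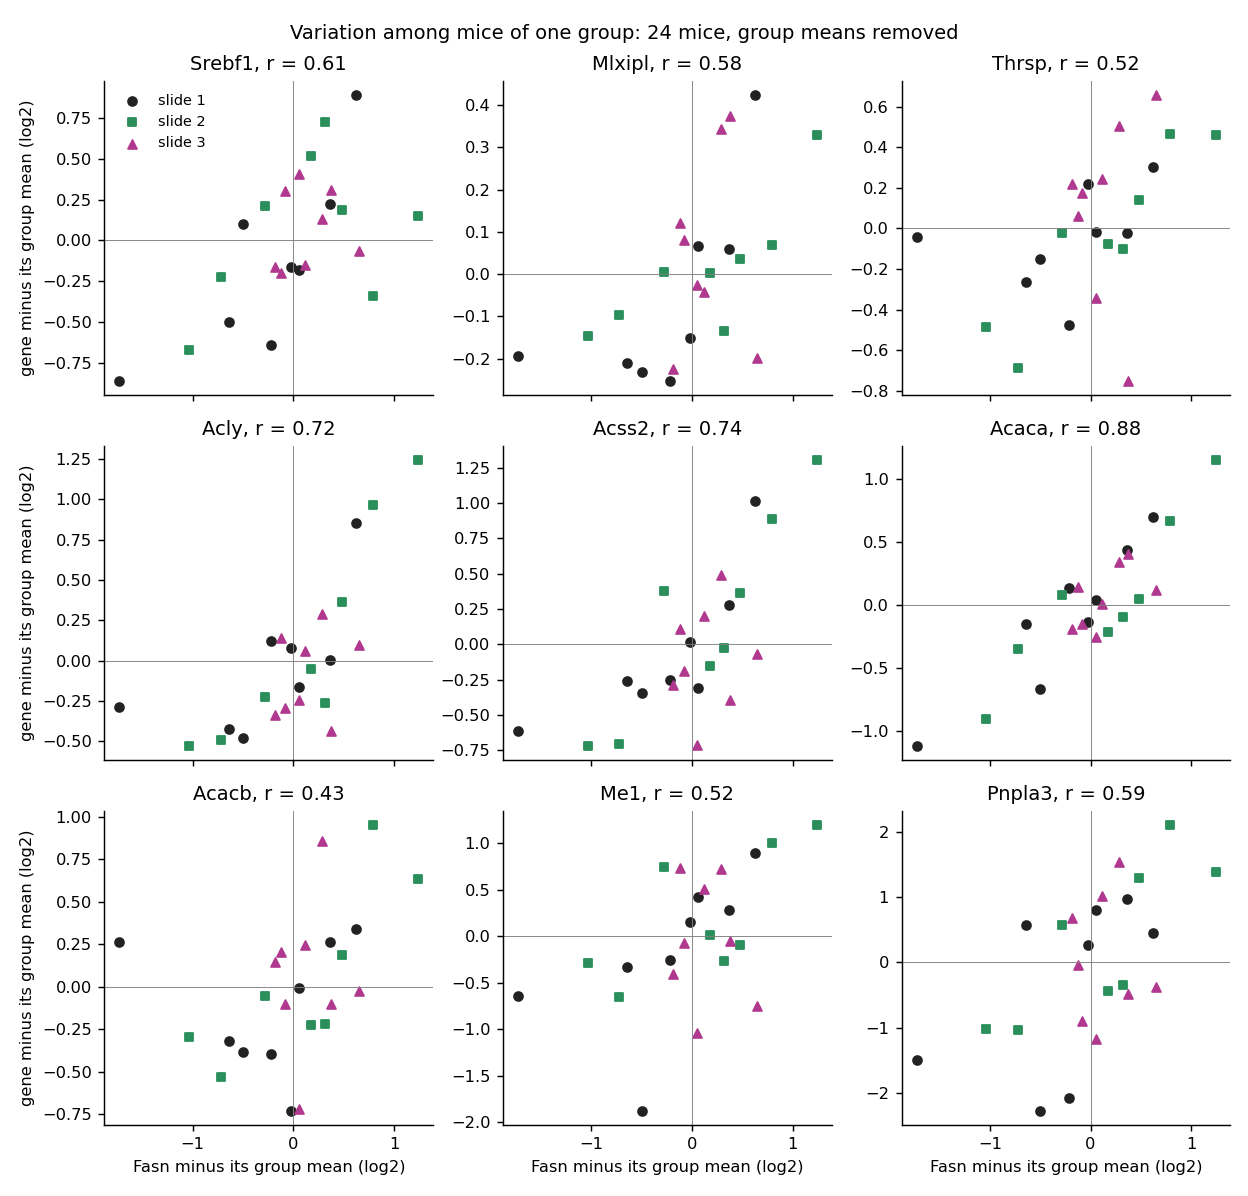
Deviation of each of 9 members from its group mean (log2, y axes) against that of Fasn (log2, x axis) in 24 livers, with symbols by slide. Acaca follows Fasn most closely (r = 0.88) and Acacb least (r = 0.43), and on slide 3 r was at most 0.27 outside Acaca.

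Other genes of the pathway were described from 4 lists, whose counts stand against 38.3% of all genes called in LWT, 40.3% in LKO, 5.41% for the difference between responses, 1.18% between genotypes under vehicle and 15.9% under CL316243. Among 24 other regulators of lipogenic transcription, 9 were called in LWT (5 higher, 4 lower; list median -0.01) and 14 in LKO (10 higher, 4 lower; median 0.08). Insig2, which holds SREBP precursors in the endoplasmic reticulum, had the largest rise in each genotype, 2.99 in LWT and 2.39 in LKO. Insig1, the other Insig gene of the list, was called lower in both. It changed by -1.80 in LWT (limma adjusted p = 6.39e-05) and -1.15 in LKO (adjusted p = 0.00394). Mid1ip1, a relative of Thrsp that promotes polymerisation of acetyl-CoA carboxylase, had the largest fall in LWT, -2.57 (limma adjusted p = 7.82e-06), with -1.55 in LKO. Ppargc1b, a coactivator of SREBP-1, fell most in LKO, by 1.83 (adjusted p = 0.000442), and was at 0.30 in LWT without a call. The responses differed between genotypes for 3 of the 24: Ppargc1b (-2.13, adjusted p = 0.0163), the repressor Bhlhe40 (0.92, adjusted p = 0.0285) and the nuclear receptor Pparg (0.91, adjusted p = 0.0397). Bhlhe40 and Pparg rose in LKO, by 0.66 and 0.55, and were at -0.26 and -0.36 in LWT, not called. Under vehicle 0 of 24 differed between genotypes, and under CL316243 4 did, 2 in each direction.

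Of 24 genes of carbon and NADPH supply, 12 were called in LWT (5 higher, 7 lower; median 0.04) and 13 in LKO (5 higher, 8 lower; median -0.09). The largest rise was that of citrate synthase, Cs, in LWT (0.61) and of the triokinase Tkfc in LKO (0.75). The largest fall was that of the acetoacetyl-CoA synthetase Aacs in LWT (-1.12) and of the glucose transporter Slc2a2 in LKO (-1.15). The cytosolic isocitrate dehydrogenase Idh1 was the only gene of this list whose response differed between genotypes, at 0.30 in LWT and -0.39 in LKO (difference -0.70, limma adjusted p = 0.00308). Of this list 0 of 24 differed between genotypes under vehicle and 6 did under CL316243 (2 higher in LKO, 4 lower).

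Of the 21 genes that use or remove newly made fatty acids, 13 were called in LWT (11 higher, 2 lower; median 0.37) and 6 in LKO (3 higher, 3 lower; median -0.05). The responses differed for 5, each lower in LKO. These were the lipolysis inhibitor Hilpda (4.06 in LWT and 1.53 in LKO, limma adjusted p = 0.00205 for the difference), the triglyceride lipase gene Pnpla2 (1.49 and 0.18, adjusted p = 0.000881), the acyl-CoA synthetase Acsl5 (0.73 and -0.15, adjusted p = 0.00736), the thiolase Acaa2 (0.35 and -0.05, adjusted p = 0.00674) and Mlycd. Mlycd encodes malonyl-CoA decarboxylase, which removes the product of Acaca and Acacb. It rose by 0.68 in LWT and was at -0.20 in LKO (difference -0.89, adjusted p = 0.000886). Scd2, a stearoyl-CoA desaturase, had the largest fall of the list in each genotype, -1.27 and -1.22. Under CL316243 14 of 21 were lower in LKO and 0 higher, against 8.17% of all genes lower, and under vehicle 2 were lower. The list was chosen with earlier results of these data known, so this count cannot serve as a test. As background, several genes of this list are known targets of PPARα.

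Of 22 enzymes that act on the proteins of the pathway, 21 were tested, with 13 called in LWT (6 higher, 7 lower; median -0.16) and 14 in LKO (6 higher, 8 lower; median -0.02). Irs2, an insulin receptor substrate, had the largest rise, 2.88 in LWT and 1.89 in LKO. The holocarboxylase synthetase Hlcs, which attaches biotin to acetyl-CoA carboxylase, had the largest fall in LWT (-1.12, with -1.13 in LKO), and Irs1 the largest in LKO (-1.49). The kinase gene Mtor rose by 1.04 in LWT and fell by 0.30 in LKO (difference -1.34, limma adjusted p = 4.36e-06), and the deacetylase Sirt1 rose by 0.25 in LWT and by 0.78 in LKO (difference 0.53, adjusted p = 0.00599). Of the 21, 0 differed between genotypes under vehicle and 5 did under CL316243 (4 higher in LKO, 1 lower).

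**Figure D5:**
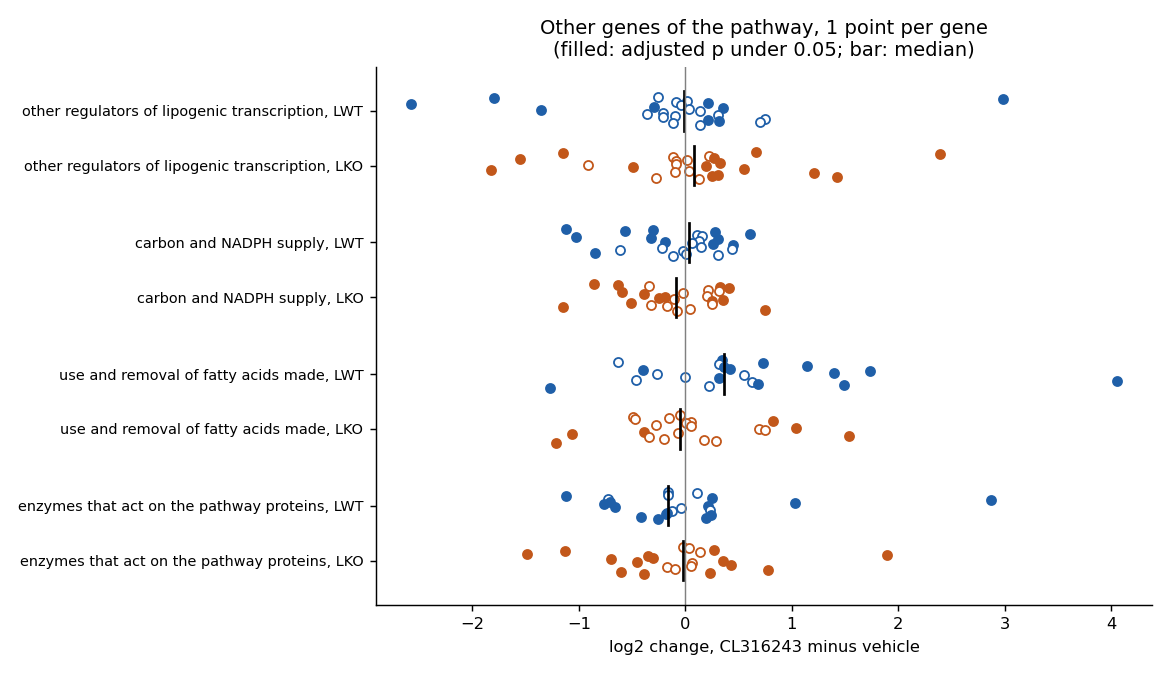
Log2 change with CL316243 (x axis) of each tested gene of the 4 lists in LWT and LKO, with the list median as a bar; filled points passed an adjusted p of 0.05. The list of fatty acid use and removal has its median at 0.37 in LWT and at -0.05 in LKO.

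The genes outside the members whose levels over the 24 livers were most like the mean standardised level of the 10 were Pdk1 (Pearson r = 0.89), Echdc1 (0.88), Commd10 (0.88), Ptgr1 (0.87) and Pdzk1ip1 (0.86), where the points share array and scaling and no test applies. Probe, clone and gene model identifiers were passed over in this ranking. Among the members the correlation with their own mean was highest for Acss2 (0.91) and lowest for Me1 (0.32). Pdk1, a pyruvate dehydrogenase kinase, was at -0.43 in LWT without a call and fell by 0.73 in LKO (limma adjusted p = 0.0283), and Commd10 fell in both genotypes (-0.54 and -0.46).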

How the data were processed

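Liver RNA (200 ng per sample) was labelled with Cy3 and read on 24 single-colour Agilent arrays, 1 per mouse, on 3 slides of 8 with 2 mice of every group each. Per the file headers, the authors' spot intensities come from the Agilent Feature Extraction software (version 10.10.1.1) and are background-subtracted on a linear scale. The series table deposited by the authors holds log2 values. On the files these matched the quantile-normalized median signal (median difference 0.000259 over 31367 probes), and they served as an alternative.

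Intensities were converted to log2 without flagged outlier spots, spots of a probe were averaged, and the array's 75th percentile over non-control spots was subtracted. Probes entered the fit where 4 or more of the 6 arrays of some group were well above background and every group had 3 values or more (32037 probes). The brightest kept probe stood for its gene (21331 genes). A model with 1 mean per group was fitted with limma 3.58.1 under R 4.3.3, with Benjamini-Hochberg adjustment within each of 5 comparisons and calls at 0.05. Files were read through the data.table package, version 1.17.8. The scripts were tested on simulated data. No probe was saturated, and the median standard error of a difference between groups was 0.13, and 0.19 for the difference between responses.

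Probe positions and gene names are those of the array's annotation (mm9); exon annotation was not used here. Promoter sequences are RefSeq's (GRCm38.p6), and all 10 members matched by symbol. The members and the gene lists were chosen with earlier results of these data known. Named are all members, list genes whose response differed between genotypes, and the called gene of each list with the largest rise and fall per genotype. The 5 genes nearest in pattern, Ppara, some cell type markers, and Insig1 beside Insig2 are named too. Alternatives changed the background correction, scaling, probe filter, probe choice, blocks and arrays.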

Additional observations from a re-analysis of the deposited data

Results flagged for a closer look

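Of 40 sets of 6 values (10 genes in 4 groups), 3 held a liver far from the others by Dixon's test, against about 1 in 20 expected by chance. LKO CL316243 replicate 1 stood above its group for Acly (log2 level 7.75, with the next liver at 6.59) and for Acss2 (5.69, next 4.40). LWT vehicle replicate 5 stood above its group for Me1 (5.77, next 5.05). The response of Srebf1 to CL316243 differed between the genotypes (LKO minus LWT -1.25, limma adjusted p = 0.0445), a call that most fits without 1 mouse lost.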

How the results depend on the processing

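Calls of Srebf1, Mlxipl, Thrsp, Acacb, Fasn and Pnpla3 with CL316243 in LWT and of Srebf1 and Thrsp in LKO kept their direction and their side of the threshold in all 12 other settings and without any 1 mouse. Between the genotypes' responses 0 members in place of 1 were called under quantile normalization, median centring, the series table, no filter on dim probes, the slide block, and the slide and row block, and 0 without LKO vehicle replicate 6 and LKO CL316243 replicate 3 together, a setting chosen after seeing the data. In LKO 3 members in place of 5 were called with no filter, on only the 12 arrays compared and in that added setting, and without 1 mouse 3 to 5. Under CL316243, 1 member in place of 2 differed between genotypes with median centring, with no filter and on only the 12 arrays. Without 1 mouse, 0 to 2 members were called between responses. The no-filter fit, which tests more genes, called 664 genes between responses and 167 under vehicle, and the 12-array fit 2203 under CL316243. On slides 1 and 2 alone (2 mice per group, no call) the members' median was 0.0735 and -1.04 in LWT, -0.45 and 0.65 between responses, and -0.88 and 0.88 between genotypes under CL316243. Calls were gained for Acss2 with the mean of kept probes (LWT -1.23, LKO -1.0), which gave 8 members called in LWT and 6 in LKO, and for Pnpla3 under CL316243 in the added setting (1.90), which gave 3. Signs changed for Me1 between responses under quantile normalization (0.00804), the series table (0.0287) and the mean of kept probes (0.0767); Acss2 between responses (0.23), Acacb in LKO (0.12) and Pnpla3 in LKO (-0.22) with the mean of kept probes; Thrsp under vehicle (-0.00791) and Fasn under CL316243 (0.0398) with the series table; Mlxipl under vehicle with median centring (0.00115) and in the added setting (0.0219), and under CL316243 on slide 1 (-0.00469); Fasn under CL316243 in the added setting (0.31); and Srebf1 between responses on slide 2 (0.0476). Members without a call also changed sign from slide to slide, among them Fasn between genotypes under CL316243 (-1.40 to 1.63) and between responses (-1.42 to 1.89), Acaca under CL316243 (-0.87 to 1.46) and Acss2 in LWT (-1.13 to 0.58). The cause was not tested. Without 1 mouse, signs changed for Acaca in LWT (-0.280 to 0.0398), for Acacb (-0.155 to 0.179) and Pnpla3 (-0.208 to 0.669) in LKO, between responses for Acly (-0.356 to 0.0859), Fasn (-0.0913 to 0.502) and Me1 (-0.377 to 0.199), under vehicle for Mlxipl (-0.0749 to 0.0443) and Thrsp (-0.0783 to 0.118), and under CL316243 for Acss2 (-0.195 to 0.268) and Fasn (-0.279 to 0.315). Fits with a replicate block kept every member's call (adjusted p = 0.0103 for Srebf1 between responses); same-numbered samples correlated by a median of 0.05 over 36 pairs, so the numbers were not taken to pair the samples. That block moved the count over all genes called with CL316243 in LWT from 8180 to 8309. Of the CL316243 calls, that of Me1 in LWT was lost in 1 of 12 settings and, in LKO, those of Me1 in 3 and of Fasn in 2.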
